A study of Mus musculus with 8 samples.

Results

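Zfp genes are mouse genes named for zinc finger proteins. The 181 genes described here have a name made of Zfp and digits only and a mean level over all 8 libraries of at least 15 CPM (counts scaled to a fixed total per library). They were 181 of 376 records with such a name and of 55401 gene records in all. Of the other records so named, 184 entered the same test at lower levels and 11 had too few counts to be tested, 1 of them with no count in any library. The genes were chosen by level alone, so their levels are given as a description. Just inside the limit were Zfp239 at 15.1 CPM, Zfp382 at 15.3 CPM and Zfp771 at 15.4 CPM, and just outside it were Zfp938 at 14.9 CPM, Zfp777 at 14.7 CPM and Zfp560 at 14.6 CPM.

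Haematopoietic stem cells (HSCs), from which every blood lineage descends, were sorted from the marrow of 8-week-old C57BL/6 mice, and about 3000 went into each RNA sequencing library. The 4 Nynrin CKO libraries came from Nynrin fl/fl mice with Tie2-Cre, a Cre recombinase whose promoter acts in endothelium and in blood cells. The 4 WT libraries came from Nynrin fl/fl mice without Cre, labelled wild type, so both groups carry the floxed alleles. Because Cre came with Nynrin CKO alone, effects of Cre and of Nynrin loss cannot be told apart. The labels do not tie each library to a mouse of its own, so the p-values rest on a spread between libraries that may be partly technical. A lower level can come from fewer cells that make an RNA or from less of it per cell, and bulk libraries cannot tell these apart.

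Most proteins of this name carry C2H2 zinc fingers, small loops folded around a zinc ion that contact DNA bases and are strung together to read longer sequences. Many also have a KRAB domain, which recruits Trim28 and through it the histone methyltransferase Setdb1 and HP1 proteins, and in mouse cells this machinery silences retrotransposons and holds methylation at imprinted loci. A few are of another kind, such as Zfp36 (tristetraprolin), whose CCCH fingers bind AU-rich elements of mRNA and speed its decay. In the annotation deposited with the counts, 175 of the 181 genes had the term nucleic acid binding, 160 metal ion binding and 119 nucleus. By its KEGG orthology column, 77 genes were of the KRAB type, 7 of a type with KRAB and SCAN domains, 3 of a SCAN type and 8 of other types, and 86 had no entry. A missing entry does not show that the domain is missing.

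Start-site windows were read from RefSeq for 4 of the 6 genes past the adjusted threshold, to show the letters upstream of genes that differed between the groups. Zfp51 and Zfp831 are not shown. Each runs from 250 bases before to 50 bases after the annotated start, 5′ to 3′ on the gene's strand, in GRCm38.p6. Capitals mark short motifs, each searched on both strands. GGGCGG is the GC box. The CCAAT box is named for its letters. TATAAA is the TATA box. The letters ACTACA are the core of the site of Zfp143. These are the windows of Zfp414 at chr17:33628842-33629141 on the plus strand, and of Zfp738 at chr13:67683463-67683762, Zfp169 at chr13:48513387-48513686 and Zfp871 at chr17:32788238-32788537 on the minus strand.
Zfp414: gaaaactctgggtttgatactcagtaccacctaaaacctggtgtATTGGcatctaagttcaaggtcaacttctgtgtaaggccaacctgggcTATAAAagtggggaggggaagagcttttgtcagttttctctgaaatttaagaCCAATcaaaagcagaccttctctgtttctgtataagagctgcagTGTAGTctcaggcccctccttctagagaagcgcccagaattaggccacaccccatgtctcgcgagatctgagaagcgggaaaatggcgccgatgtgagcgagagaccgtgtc
Zfp738: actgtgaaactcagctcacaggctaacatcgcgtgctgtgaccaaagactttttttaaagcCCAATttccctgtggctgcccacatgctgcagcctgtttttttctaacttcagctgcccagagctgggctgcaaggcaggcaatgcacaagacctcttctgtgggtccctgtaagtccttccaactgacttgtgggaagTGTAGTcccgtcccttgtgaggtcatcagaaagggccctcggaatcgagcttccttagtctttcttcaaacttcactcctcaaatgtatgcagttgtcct
Zfp169: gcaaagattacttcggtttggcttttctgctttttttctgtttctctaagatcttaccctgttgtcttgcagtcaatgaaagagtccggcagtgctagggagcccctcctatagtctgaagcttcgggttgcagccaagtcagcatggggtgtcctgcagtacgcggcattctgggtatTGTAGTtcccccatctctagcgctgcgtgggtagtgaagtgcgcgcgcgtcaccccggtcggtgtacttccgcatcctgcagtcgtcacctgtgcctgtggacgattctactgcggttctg
Zfp871: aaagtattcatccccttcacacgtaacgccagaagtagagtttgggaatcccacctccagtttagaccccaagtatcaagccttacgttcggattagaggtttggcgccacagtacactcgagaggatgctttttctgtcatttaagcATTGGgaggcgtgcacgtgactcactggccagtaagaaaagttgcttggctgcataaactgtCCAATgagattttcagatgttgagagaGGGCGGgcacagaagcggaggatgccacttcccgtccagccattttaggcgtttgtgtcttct
The marked motifs do not overlap one another in these windows. Zfp414, Zfp738 and Zfp169 hold ACTACA in the reversed form TGTAGT, and Zfp871 does not hold it. The window of Zfp738 lies inside the span that the deposited table gives for the gene.

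Over the 145 of 181 genes matched to such a window by symbol, ACTACA was found in 26.2%, against 10.3% of all 32851 windows. CCAAT stood in 55.2% of the Zfp windows and 37.4% of all windows, and GGGCGG in 53.1% and 35.7%. The ETS core CCGGAAG was present in 29 of the 145 Zfp windows, and in 8.86% of all windows. GCGCATG, part of the NRF1 site, stood in 6.9% of the Zfp windows and 3.91% of all windows. TATAAA stood in 6.21% of the Zfp windows and 13.6% of all windows. The Zfp windows were also richer in CpG dinucleotides, with a median of 15 per 300 bases against 7 over all windows. The 32851 windows were not limited to genes of at least 15 CPM, and shares for genes of that level were not computed. The differences are therefore not read as particular to Zfp genes. These shares describe letters and base composition, not binding.

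The libraries themselves differed in ways that the groups do not cover. Total counts ran from 43998525 to 56437299 in Nynrin CKO libraries and from 36942835 to 50260720 in WT libraries. Counts on 1766 olfactory and vomeronasal receptor genes summed to 134 to 213 CPM in Nynrin CKO 3 and 4 and WT 4, and to 854 to 1601 CPM in the other 5 libraries. These are called here the receptor-poor and the receptor-rich set. Xist lay above 100 CPM in WT 3 and 4 and below it in the other 6. All 9 HSC markers were counted in every library and none passed the test, with sums of 3538 to 4046 CPM in Nynrin CKO and 3135 to 3944 CPM in WT. All 8 neutrophil markers were also counted in every library, and they summed to 461, 505, 4011 and 4048 CPM in Nynrin CKO 1 to 4 and to 202 to 348 CPM in WT. Of these markers Ctsg was called higher, and Mpo alone had 2827 and 2822 CPM in Nynrin CKO 3 and 4. Some other marker sums were higher in Nynrin CKO too, while T cell and endothelial sums overlapped between the groups. The 3 T cell markers summed to 1.06 to 2.51 CPM in Nynrin CKO and 0.553 to 2.76 CPM in WT. The 4 endothelial markers summed to 109 to 139 CPM in Nynrin CKO and 96.7 to 119 CPM in WT. The 4 mast and basophil markers summed to 26.3 to 102 CPM in Nynrin CKO and 5.58 to 13.5 CPM in WT, with Cpa3 and Hdc called higher. The 7 macrophage markers summed to 77.4 to 172 CPM in Nynrin CKO and 51.6 to 74.0 CPM in WT, with Mpeg1 called higher. Of these, Csf1r had 4.14, 3.67, 35.4 and 34.8 CPM in Nynrin CKO 1 to 4, against 7.07 to 9.98 CPM in WT. The 5 B cell markers summed to 50.96 to 88.3 CPM in Nynrin CKO and 35.6 to 42.1 CPM in WT, with none called. The part of such cells in the values of the Zfp genes was not tested. The targeted gene was lower in each Nynrin CKO library, Nynrin having 8.22 to 12.7 CPM in Nynrin CKO and 30.1 to 47.5 CPM in WT (log2 fold change -1.85, edgeR quasi-likelihood adjusted p = 0.0345).

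Few of the 181 genes differed between the groups past the threshold. Zfp51 and Zfp414 were higher in Nynrin CKO, and Zfp831, Zfp738, Zfp169 and Zfp871 were lower (edgeR quasi-likelihood test with Benjamini-Hochberg adjustment over all 27573 tested records, adjusted p under 0.05). The 2 higher genes are 1.1% of the 181, against 2.22% called higher over all tested records. The 4 lower genes are 2.21% of the 181, against 0.588% called lower over all tested records, where 2.8% were called in either direction. Among the 8742 tested records that also reach 15 CPM, 6.35% were called higher and 1.37% lower. The split between higher and lower calls moved with the scaling of the libraries, which gave 0 higher and 9 lower genes with total counts, 1 and 5 with upper-quartile factors and 0 and 0 with RLE factors.

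The wider distribution was nearly centred on no difference. The 181 log2 fold changes had a median of -0.02, and 84 were positive and 97 negative, where the median was 0.19 over tested records of at least 15 CPM and -0.09 over all tested records. The interquartile range ran from -0.28 to 0.23. With total counts in place of TMM factors the median of the 181 was -0.28 and that of all tested records -0.34. In 85 genes the absolute log2 fold change was under 0.25, in 30 it was 0.5 or more, and in 2, Zfp422 and Zfp169, it was over 1. At an unadjusted p under 0.05 there were 24 higher and 22 lower Zfp genes, where 13.2% and 5.78% of all tested records passed, and 33.3% and 8.58% of those that reach 15 CPM. All 4 Nynrin CKO libraries lay above all 4 WT libraries in 16 genes (8.84%, against 9.52% of all tested records and 23.9% of those that reach 15 CPM), and below them in 17 (9.39%, against 4.83% and 6.59%). The 184 tested Zfp genes under 15 CPM had a median of -0.26 and none was called, with 6 higher and 16 lower at an unadjusted p under 0.05.

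**Figure D1:**
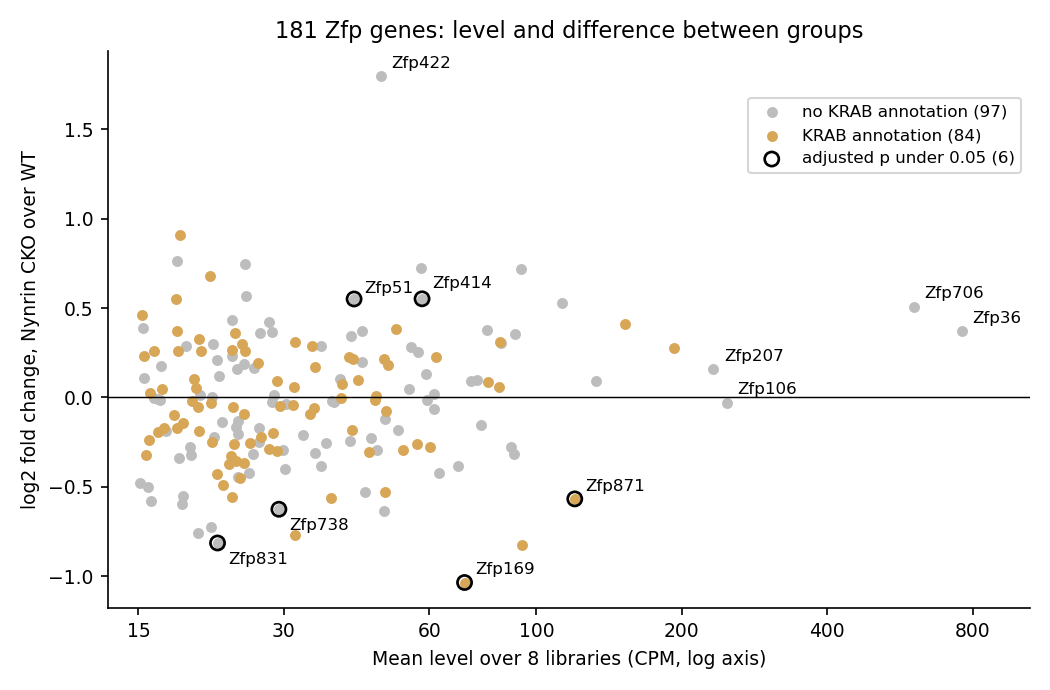
Each point is 1 of the 181 Zfp genes, with the mean level over 8 libraries (CPM, log axis) across and the log2 fold change of Nynrin CKO over WT upward. Points below 100 CPM lie on both sides of 0, and the 6 ringed genes past the adjusted threshold have mean levels between 21.9 and 120.0 CPM.

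Both higher genes lie on chromosome 17, and both were 1.47 times the WT mean in Nynrin CKO. Zfp51 (ENSMUSG00000023892, chr17:21450374-21465587) had 50.97, 50.5, 48.9 and 51.2 CPM in Nynrin CKO 1 to 4, against 33.3, 34.3, 34.4 and 35.5 CPM in WT 1 to 4. The levels here and in what follows are CPM scaled by TMM factors. The groups lie far apart for their spread, at 50.4 ± 1.01 CPM in Nynrin CKO and 34.4 ± 0.869 CPM in WT (SD, n = 4 each), with the smallest standard error of the 181 fold changes (log2 fold change 0.55, SE 0.09, edgeR adjusted p = 0.0345). Zfp414 (ENSMUSG00000073423, chr17:33629090-33631779) had 70.2, 71.9, 71.4 and 65.6 CPM in Nynrin CKO, against 45.2, 49.4, 39.9 and 55.7 CPM in WT. All 4 Nynrin CKO libraries are above all 4 WT libraries, and WT 4 is the nearest to them (log2 fold change 0.55, SE 0.12, edgeR adjusted p = 0.0457). Of the 31-base words of Zfp414 transcripts, 44.7% also occur in transcripts of the record Gm20507, so its count may include or miss reads of that record.

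The 4 lower genes differed more in size. Zfp169 (ENSMUSG00000050954, chr13:48487647-48513436), annotated as of the KRAB type, had 54.2, 56.6, 35.1 and 31.8 CPM in Nynrin CKO, against 93.2, 109.6, 81.8 and 79.9 CPM in WT. Nynrin CKO 3 and 4 are lower again than Nynrin CKO 1 and 2, and both pairs are below every WT library (log2 fold change -1.04, SE 0.21, edgeR adjusted p = 0.0435). Zfp831 (ENSMUSG00000050600, chr2:174643534-174710832) had 16.4, 16.8, 14.0 and 14.1 CPM in Nynrin CKO, against 26.5, 33.7, 23.4 and 24.2 CPM in WT. WT 2 stands above the other WT libraries, and no Nynrin CKO library reaches the lowest of them (log2 fold change -0.81, SE 0.15, edgeR adjusted p = 0.0397).

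Zfp738 (ENSMUSG00000048280, chr13:67658685-67687071) had 23.4, 22.5, 20.2 and 23.8 CPM in Nynrin CKO, against 37.5, 34.9, 29.1 and 37.3 CPM in WT. Its groups are apart, with WT 3 nearest to the Nynrin CKO libraries (log2 fold change -0.63, SE 0.12, edgeR adjusted p = 0.0408), and 26.6% of its 31-base words occur in other records, 10.8% in Zfp729a. Zfp871 (ENSMUSG00000024298, chr17:32765496-32788287), also annotated as of the KRAB type, had 99.7, 101, 83.8 and 92.3 CPM in Nynrin CKO, against 151, 156, 129 and 122 CPM in WT. It is the most abundant of the 6, and again no library of one group falls within the other (log2 fold change -0.57, SE 0.12, edgeR adjusted p = 0.0443). For each of the 6 genes the two-sided exact permutation p was 0.0286, the smallest that 4 against 4 libraries can give. Without WT 4 all 6 passed at an adjusted p of 0.0248 to 0.0479, and without any other single library none of the 181 genes passed, with adjusted p up to 0.277 over the 6. That loss was general, since leaving out a library other than WT 4 left 1 to 6 higher and 0 to 4 lower calls over all tested records, against 611 and 162 with all 8 libraries.

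**Figure D2:**
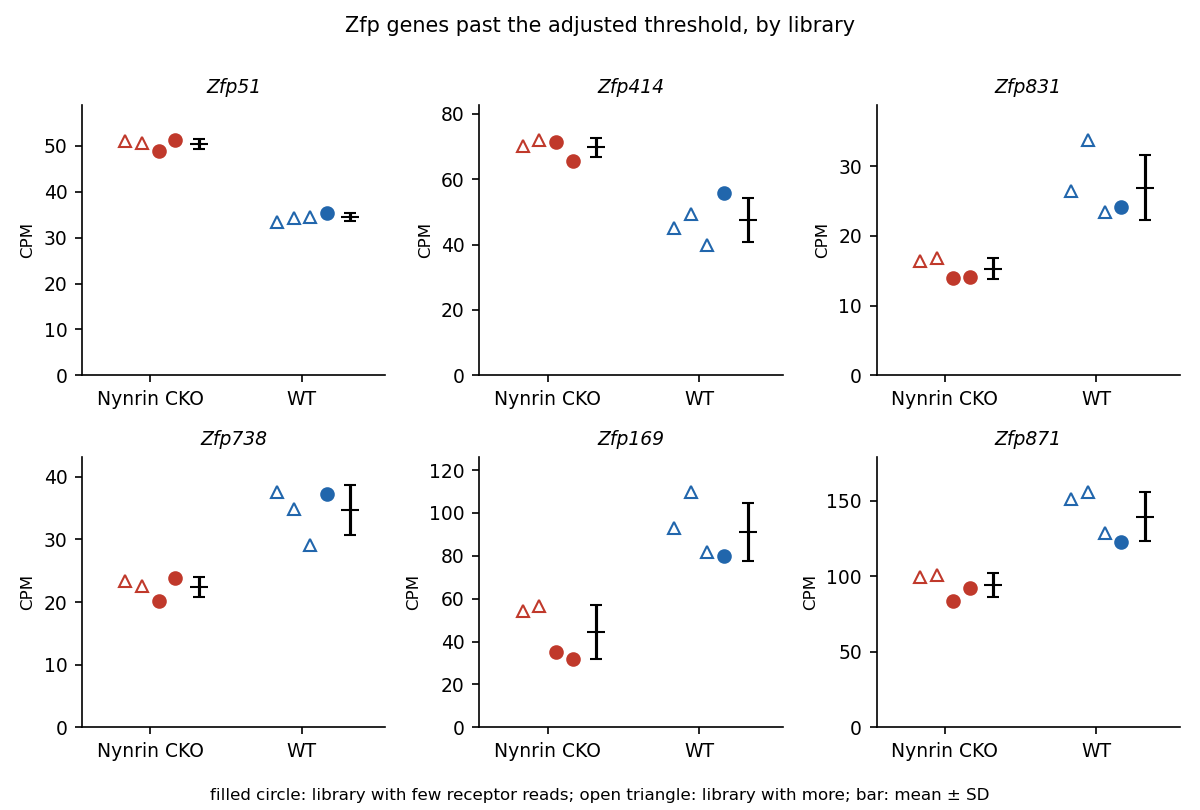
CPM in each library (upward, from 0) for the 6 Zfp genes past the adjusted threshold, with Nynrin CKO left and WT right, and a bar for the mean ± SD of 4 libraries. Filled circles are libraries with few receptor reads and open triangles those with more; the groups do not overlap in any panel, and Zfp169 has 35.1 and 31.8 CPM in the filled Nynrin CKO libraries.

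Within the library sets the 6 genes differed in size. In the receptor-rich set the log2 fold change was 0.58 for Zfp51, 0.66 for Zfp414, -0.78 for Zfp169, -0.75 for Zfp831, -0.56 for Zfp738 and -0.54 for Zfp871. In the receptor-poor set it was 0.50 for Zfp51, 0.30 for Zfp414, -1.26 for Zfp169, -0.79 for Zfp831, -0.76 for Zfp738 and -0.48 for Zfp871. With groups that do not overlap, the sign of these values is fixed in any set of libraries, so only their sizes are new, and the receptor-poor set holds a single WT library.

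Several more genes lay just short of the threshold. Zfp219, a partner of Sox9 in mouse cartilage, had 14.4, 14.8, 14.8 and 13.6 CPM in Nynrin CKO, against 20.6, 24.02, 17.8 and 24.4 CPM in WT (log2 fold change -0.59, edgeR adjusted p = 0.0501). Zfp644, which works with the histone methyltransferases G9a and GLP, had 12.1 to 16.9 CPM in Nynrin CKO, against 18.8 to 23.1 CPM in WT (log2 fold change -0.55, adjusted p = 0.0693). Zfp319 had 30.5 to 42.7 CPM in Nynrin CKO, against 42.9 to 73.3 CPM in WT (log2 fold change -0.63, adjusted p = 0.0789). The groups are apart for all of these, though for Zfp319 by a fraction of 1 CPM. Zfp526 had 9.71 to 14.3 CPM in Nynrin CKO, against 15.04 to 22.9 CPM in WT (log2 fold change -0.58, adjusted p = 0.112).

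In the other direction, Zfp639 had 22.9, 26.6, 18.6 and 23.5 CPM in Nynrin CKO, against 10.9, 16.0, 16.2 and 10.9 CPM in WT (log2 fold change 0.76, edgeR adjusted p = 0.059). Zfp35 had 122, 116, 153 and 154 CPM in Nynrin CKO, against 105, 98.5, 83.0 and 91.3 CPM in WT (log2 fold change 0.53, adjusted p = 0.0617). Neither gene has a library of one group inside the range of the other. Zfp830, a protein found with the spliceosome, had 30.7 to 33.8 CPM in Nynrin CKO, against 21.1 to 27.7 CPM in WT (log2 fold change 0.42, adjusted p = 0.0745). Zfp148 (ZBP-89), which binds GC-rich promoters, had 88.9 to 98.8 CPM in Nynrin CKO, against 73.2 to 83.9 CPM in WT (log2 fold change 0.30, adjusted p = 0.108). Both are small differences between groups that do not overlap. Zfp58 had 17.8 to 23.6 CPM in Nynrin CKO, against 11.7 to 17.8 CPM in WT (log2 fold change 0.55, adjusted p = 0.107), and 50.5% of its 31-base words occur in other records, nearly all in Gm26965.

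Of the 84 KRAB-type genes, with or without a SCAN domain, none was called higher and 2 were called lower, Zfp169 and Zfp871, with 38 of 84 log2 fold changes positive and a median of -0.04. Of the 97 genes without that annotation 2 were called higher and 2 lower, with 46 positive and a median of -0.02. Over all tested records 2.22% were called higher and 0.588% lower, and over those that reach 15 CPM 6.35% and 1.37%. Zfp809, which silences integrated retroviruses in mouse embryonic stem cells, had 48.7, 54.4, 52.6 and 47.4 CPM in Nynrin CKO, against 62.0, 71.6, 56.9 and 52.9 CPM in WT (log2 fold change -0.26, edgeR adjusted p = 0.259). Zfp445, which protects imprints in the early mouse embryo, had 55.4, 54.8, 37.9 and 37.7 CPM in Nynrin CKO, against 53.9, 58.4, 56.5 and 59.4 CPM in WT (log2 fold change -0.30, adjusted p = 0.335). The groups overlap for both genes, and for Zfp445 only Nynrin CKO 3 and 4 lie below the WT range. The summed level of the 84 genes was 2926 to 3092 CPM in Nynrin CKO and 2886 to 3314 CPM in WT.

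Genes through which KRAB proteins act were mostly not called. Of 38 listed, which include Trim28, Setdb1, the HP1 genes, the HUSH complex and DNA methyltransferases, 37 were tested, 1 rose and 1 fell, with a median log2 fold change of 0.11. Called higher and lower were 2.22% and 0.588% of all tested records. At an unadjusted p under 0.05 there were 9 higher and 4 lower. Of all tested records 13.2% and 5.78% passed so, and of those that reach 15 CPM 33.3% and 8.58%. In 7 genes all Nynrin CKO libraries lay above all WT libraries and in 2 below them. Those shares were 9.52% and 4.83% of all tested records, and 23.9% and 6.59% of those that reach 15 CPM. The listed genes had a median level of 87.4 CPM. Dnmt1, the maintenance DNA methyltransferase, had 183, 178, 156 and 159.5 CPM in Nynrin CKO, against 255, 258, 254 and 235 CPM in WT (log2 fold change -0.57, edgeR adjusted p = 0.0394). Mphosph8, the HUSH subunit that binds methylated histone H3, had 15.05, 16.8, 16.9 and 20.6 CPM in Nynrin CKO, against 10.96, 9.16, 9.99 and 12.5 CPM in WT (log2 fold change 0.70, adjusted p = 0.0491). Both have groups that do not overlap, and both passed with WT 4 left out and with no other library left out. Among 40 C2H2 factor genes with other names and at least 15 CPM, Klf1, the erythroid activator, was the 1 called. Of all records of that level 6.35% were called higher and 1.37% lower. Klf1 had 41.1, 48.3, 23.8 and 23.3 CPM in Nynrin CKO, against 17.6, 15.5, 10.8 and 15.7 CPM in WT (log2 fold change 1.19, edgeR adjusted p = 0.0497). The 4 erythroid markers, of which Klf1 is 1, summed to 107 to 203 CPM in Nynrin CKO and 72.0 to 83.7 CPM in WT. Car1 was called higher among them too, and the part that erythroid cells have in the Klf1 value was not tested. Klf1 did not pass with any of the 8 libraries left out (edgeR adjusted p from 0.065 to 0.212).

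Zfp genes whose names carry a letter after the number were outside the rule, and 2 of the 15 at 15 CPM or more were called, both lower, where 1.37% of the records of that level were. Zfp729b had 21.1, 22.1, 17.2 and 17.7 CPM in Nynrin CKO, against 44.5, 41.2, 30.8 and 30.5 CPM in WT (log2 fold change -0.91, edgeR adjusted p = 0.0394). Zfp518a had 34.97, 42.0, 35.9 and 33.8 CPM in Nynrin CKO, against 67.4, 71.6, 53.4 and 50.04 CPM in WT (log2 fold change -0.72, adjusted p = 0.0416). Both passed with WT 4 left out and with no other library left out (edgeR adjusted p up to 0.138). The median of the 15 was -0.35, and 2 of their fold changes were positive.

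None of the 13 Zfp genes listed for roles in RNA, ribosomes or protein turnover was called, where 6.35% of records of at least 15 CPM were called higher and 1.37% lower. These 13 genes include the 4 with the highest mean levels. Their median log2 fold change was 0.16, with 9 of 13 positive. Zfp706, which represses Klf4 in mouse embryonic stem cells, had 635, 594, 835 and 832 CPM in Nynrin CKO, against 482, 488, 486 and 578 CPM in WT (log2 fold change 0.51, edgeR adjusted p = 0.0955). The groups are apart, and Nynrin CKO 3 and 4 are the highest. Zfp207 (BuGZ), a partner of Bub3 at kinetochores, had 233 to 261 CPM in Nynrin CKO, against 203 to 242 CPM in WT (log2 fold change 0.16, adjusted p = 0.497). Zfp106, an RNA-binding protein, had 215, 205, 284 and 279.9 CPM in Nynrin CKO, against 258, 279, 216 and 251 CPM in WT (log2 fold change -0.03, adjusted p = 0.949), and 25.5% of its words also occur in Gm26899. Zfp622, whose yeast counterpart Rei1 acts in maturation of the large ribosomal subunit, had 15.3, 16.3, 40.9 and 39.5 CPM in Nynrin CKO, against 14.6, 23.8, 18.7 and 25.7 CPM in WT (log2 fold change 0.43, adjusted p = 0.597).

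The same split within Nynrin CKO was seen for Zfp36, the most abundant of the 181. It had 391, 409, 1387 and 1407 CPM in Nynrin CKO, against 756, 522, 482 and 1017 CPM in WT (log2 fold change 0.37, SE 0.46, edgeR adjusted p = 0.752). Nynrin CKO 1 and 2 are below every WT library and Nynrin CKO 3 and 4 above every one, so the group means carry no common direction. Zfp36 is an immediate-early gene. The 19 immediate-early genes listed had a median log2 fold change of -0.93 in the receptor-rich set and 1.04 in the receptor-poor set, and none was called in the comparison of all libraries. Its relatives Zfp36l1 and Zfp36l2, which have a letter in their names, had 29.99 to 263 CPM and 138 to 169 CPM in Nynrin CKO, and 16.8 to 73.5 CPM and 82.8 to 115 CPM in WT. For Zfp36l2 the groups are apart (log2 fold change 0.57, adjusted p = 0.052), while for Zfp36l1 they overlap (1.77, adjusted p = 0.2). Nynrin CKO 4 holds the 263 CPM, and without it the Zfp36l1 value was 0.95, while without WT 1, at 73.5 CPM, it was 2.51.

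Among 18 promoter-binding and chromatin factors without KRAB annotation none was called, and the median log2 fold change was 0.02 with 9 positive. Of all records of at least 15 CPM, 6.35% were called higher and 1.37% lower. Zfp143, which binds promoters and the anchors of chromatin loops, had 42.6, 42.7, 53.3 and 48.5 CPM in Nynrin CKO, against 44.4, 38.5, 33.4 and 47.0 CPM in WT (log2 fold change 0.20, edgeR adjusted p = 0.516). Zfp410, which activates Chd4, had 58.5 to 64.0 CPM in Nynrin CKO, against 46.7 to 57.7 CPM in WT (log2 fold change 0.25, adjusted p = 0.208). The groups overlap for Zfp143 and are apart by under 1 CPM for Zfp410. Zfp217, found with the corepressor CtBP and the demethylase Lsd1, had 33.7, 39.7, 109.9 and 120.1 CPM in Nynrin CKO, against 48.0, 47.9, 41.9 and 45.9 CPM in WT (log2 fold change 0.72, adjusted p = 0.364). Zfp281 had 29.3, 28.4, 21.9 and 18.7 CPM in Nynrin CKO, against 26.7 to 28.8 CPM in WT (log2 fold change -0.17, adjusted p = 0.635). Zfp217 and Zfp281 thus have their extreme values in Nynrin CKO 3 and 4, in opposite directions. Zfp521, a cofactor that HSCs express, ran from 25.4 to 54.2 CPM in Nynrin CKO and from 32.2 to 92.8 CPM in WT, with the groups overlapping widely (log2 fold change -0.29, adjusted p = 0.757).

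As a description of level, 98 of the 181 genes had a mean of 15 to under 30 CPM, 54 of 30 to under 60, 20 of 60 to under 100 and 9 of 100 or more. The 10 with the highest means were Zfp36, Zfp706, Zfp106, Zfp207, Zfp266, Zfp868, Zfp687, Zfp871, Zfp35 and Zfp26. Per kilobase of the longest annotated transcript, mean CPM was 285.5 for Zfp36, 139.6 for Zfp706, 71.1 for Zfp207 and 69.1 for Zfp868, against a median of 7.69 over the 181. Zfp266 and Zfp868, both annotated as of the KRAB type, again had their highest values in Nynrin CKO 3 and 4. Zfp266 had 79.1, 137, 331 and 324 CPM in Nynrin CKO, against 101, 232, 186 and 199.7 CPM in WT (log2 fold change 0.28, edgeR adjusted p = 0.812). Zfp868 had 133, 129, 226 and 226 CPM in Nynrin CKO, against 142, 136, 121 and 136 CPM in WT (log2 fold change 0.41, adjusted p = 0.316). Zfp687, known with Zfp592 as a partner of Zmynd8, had 102 to 166 CPM in Nynrin CKO, against 113 to 149 CPM in WT (log2 fold change 0.09, adjusted p = 0.854), and it overlaps the record of Pi4kb. Zfp26 had 91.1, 85.6, 40.3 and 39.6 CPM in Nynrin CKO, against 135, 132, 111 and 75.4 CPM in WT (log2 fold change -0.82, adjusted p = 0.186), with WT 4 inside the Nynrin CKO range.

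For a typical gene the highest library held 1.79 times the level of the lowest, but some went far past that. Zfp715 had 36.5, 34.8, 3.90 and 0.649 CPM in Nynrin CKO, against 22.5, 19.5, 28.4 and 27.9 CPM in WT, a ratio of 56.3 between its highest and lowest library. Nynrin CKO 1 and 2 are above every WT library and Nynrin CKO 3 and 4 far below, where raw counts fell to 27. Zfp239 had 20.2, 19.6, 4.94 and 3.03 CPM in Nynrin CKO, against 16.6, 18.7, 19.2 and 12.2 CPM in WT. It shows the same order of the Nynrin CKO pairs. Zfp62 had 56.4, 53.3, 24.99 and 10.1 CPM in Nynrin CKO, against 12.4, 58.1, 58.1 and 19.0 CPM in WT, so both groups hold high and low libraries.

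Other wide ranges rested on 1 library. Zfp422 had 26.2, 203, 32.9 and 33.8 CPM in Nynrin CKO, against 19.0, 22.7, 23.8 and 19.5 CPM in WT. Its groups are apart, with the largest fold change of the 181 carried by Nynrin CKO 2 (log2 fold change 1.80, SE 0.63, edgeR adjusted p = 0.149, against 0.55 without that library), and 30.6% of its words occur in Zfp955b. Zfp959 had 21.9 to 31.7 CPM in Nynrin CKO, against 19.7, 22.2, 2.21 and 21.6 CPM in WT (log2 fold change 0.68, adjusted p = 0.59), and 39.9% of its words occur in other records.

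**Figure D3:**
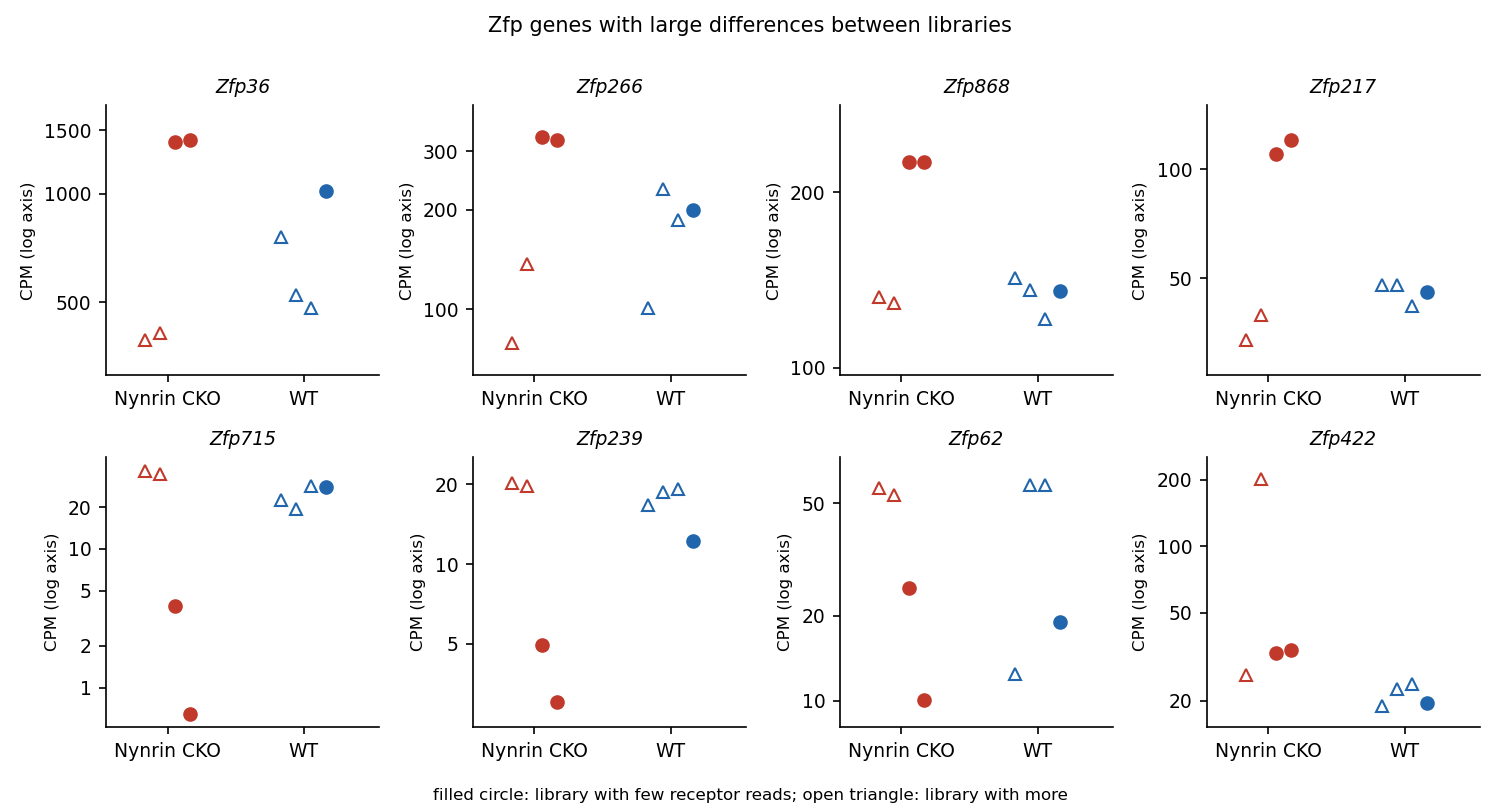
CPM by library (log axis) for 8 Zfp genes whose levels differ widely between libraries, Nynrin CKO left and WT right, with filled circles for libraries with few receptor reads and open triangles for those with more. Zfp36, Zfp266, Zfp868 and Zfp217 are highest and Zfp715 and Zfp239 lowest in the filled Nynrin CKO libraries, and Zfp422 has 1 open triangle at 203 CPM.

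The split between the Nynrin CKO pairs reached many of the genes. The mean of Nynrin CKO 3 and 4 was below the mean of Nynrin CKO 1 and 2 in 107 of 181, in 40 of them by a factor of at least 1.5. It was above by that factor in 23. The same counts were not made over all tested records, so they are not read as particular to Zfp genes. The pairs also differ in neutrophil marker sums and in receptor reads, and the part of either in these differences was not tested. Computed within each library set, the log2 fold change had the same sign in both sets for 82 of 181 Zfp genes (45.3%), where the share was 62.9% over the 8742 tested records of at least 15 CPM. It was 31 of 84 (36.9%) for genes of the KRAB type and 51 of 97 (52.6%) for the others. In 37 Zfp genes both signs were positive and in 45 both were negative. In 59 the fold change was positive in the receptor-rich set and negative in the receptor-poor set, and in 40 the reverse. Over the 8742 records these counts were 3939, 1559, 1862 and 1381. The medians of those records were 0.18 in the receptor-rich set and 0.12 in the receptor-poor set, against 0.02 and -0.09 for the 181 genes. A centre above 0 in both sets raises the share of equal signs, so the shares are not like for like. Across the 181 genes Spearman's rho between the 2 sets was -0.03, a description over genes that share the same libraries, against 0.27 across the 8742 records. The median of the 84 KRAB-type genes was 0.04 in the receptor-rich set and -0.19 in the receptor-poor set, and the difference between the sets was not tested.

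**Figure D4:**
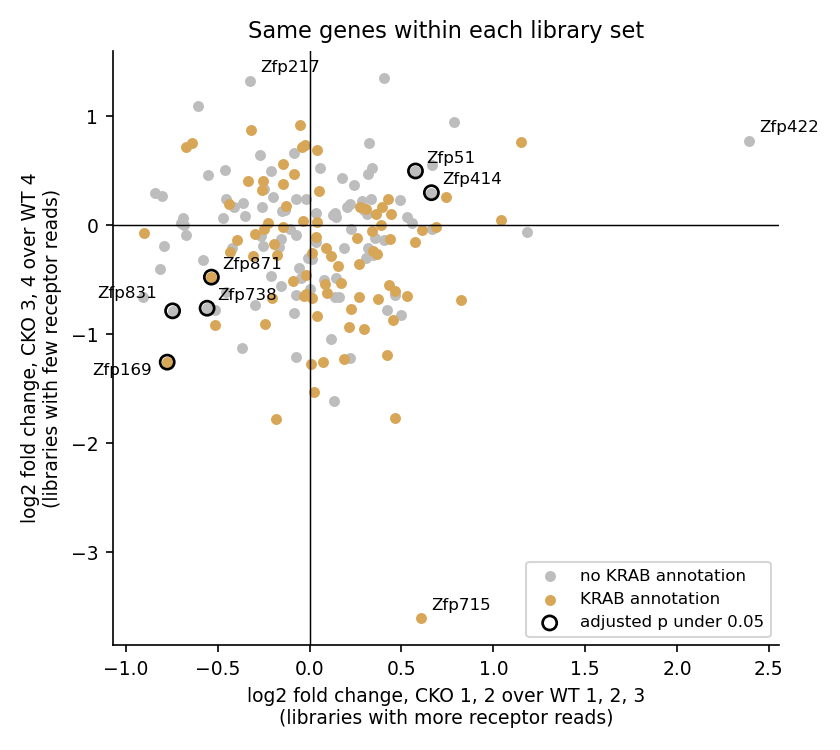
Each point is 1 of the 181 Zfp genes, with the log2 fold change of Nynrin CKO over WT in the 5 libraries with more receptor reads across and in the 3 with few upward. Points fill all 4 quadrants, with 82 of 181 in the 2 of equal sign; the 6 ringed genes, whose groups do not overlap, lie in those 2, and Zfp715 at -3.60 is the lowest point.

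Fold changes followed transcript length. Spearman's rho between the length of the longest annotated transcript and the log2 fold change was -0.40 across the 181 genes and -0.51 across 8739 tested records of at least 15 CPM, a description over genes of the same libraries. With the records cut into 5 groups of nearly equal size by length, the 12 Zfp genes of at most 1970 bases had a median log2 fold change of 0.33, against 0.45 for all records of that length. The 50 Zfp genes of 5310 bases or more had a median of -0.25, against -0.06. Zfp genes were the longer ones, with a median length of 3890 bases against 3404 for the records of at least 15 CPM. Both genes called higher are in the 2 shorter groups (Zfp414 with 1544 bases and Zfp51 with 2574), and 3 of the 4 called lower are in the longest group (Zfp831 with 9807 bases, Zfp871 with 10851 and Zfp738 with 13215), while Zfp169 has 4175. After a trend on length and GC content was removed from each library, the log2 fold change was 0.32 for Zfp414, 0.41 for Zfp51, -0.55 for Zfp831, -0.28 for Zfp871, -0.30 for Zfp738 and -1.02 for Zfp169. The directions stayed, none of the 6 passed (edgeR adjusted p from 0.0818 for Zfp169 to 0.609 for Zfp738) where 2 higher and 1 lower of all tested records did, and 33 of the 181 had an unadjusted p under 0.05.

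**Figure D5:**
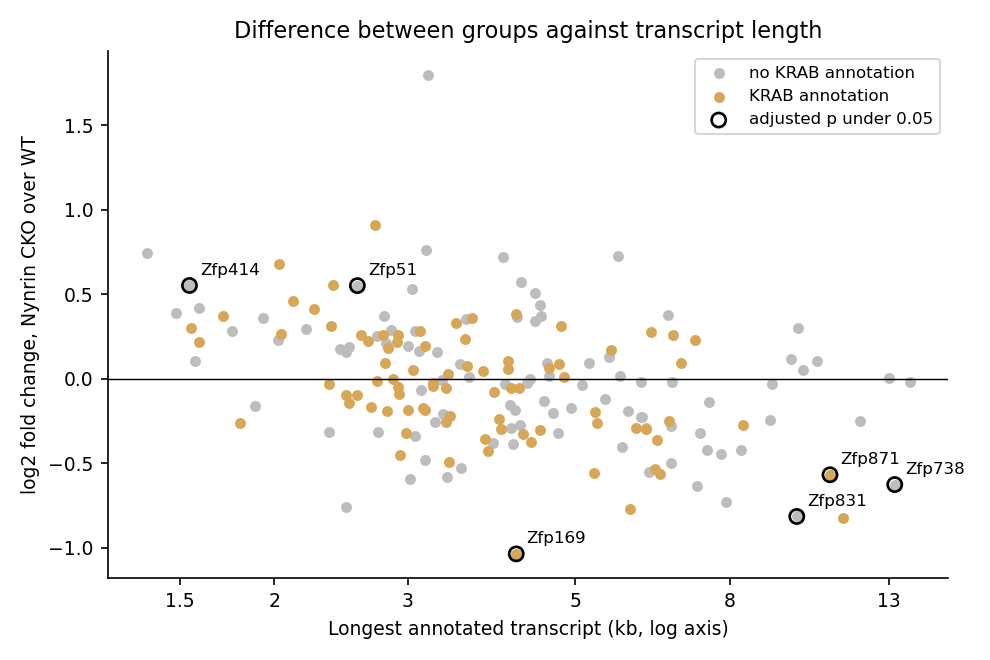
Log2 fold change of Nynrin CKO over WT against the longest annotated transcript in kb (log axis) for the 181 Zfp genes. The medians are 0.33 up to 1970 bases and -0.25 from 5310 bases; Zfp414 and Zfp51 lie among the shorter transcripts and Zfp831, Zfp871 and Zfp738 among the longest.

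Zfp genes often stand side by side in the genome. Chromosome 7 held 41 of the 181, chromosome 17 held 23, chromosome 8 held 14 and chromosome 13 held 13. With neighbours joined where they lie within 200 kb, 79 genes had a neighbour and 102 had none, and 15 clusters of 3 or more held 59 genes. The cluster at chr17:21383748-21725636 held Zfp677, Zfp51, Zfp53, Zfp52, Zfp983 and Zfp760, and its median log2 fold change was 0.23, with 4 of 6 positive. A second at chr17:32765496-33033402 held Zfp871, Zfp799, Zfp870, Zfp472, Zfp952 and Zfp763, all annotated as of the KRAB type, and its median was -0.28, with 2 of 6 positive. The one at chr13:67490167-67729173 held Zfp58, Zfp87, Zfp748, Zfp738 and Zfp65, from -0.63 for Zfp738 to 0.55 for Zfp58. The neighbours of a called gene thus did not all share its sign.

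Relatedness also limits the counts. Of the 31-base words of a gene's transcripts a median of 2.62% occurred in transcripts of other genes, and 106 of the 181 genes shared under 5%. For 31 genes the share was over 20% and for 10 over 50%, and 26 genes overlap another record with a count of at least 10% of theirs. The sources used here do not say how reads with several matches were counted, so levels of these genes are uncertain. Of the 6 called genes this concerns Zfp414 and Zfp738.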

How the data were processed

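Per the file headers, the deposited table holds a column of raw, whole-number counts for each library, and the build is mm10 per the submitters' processing notes. Aligner, counter, strand setting and treatment of multiply matching reads are not given in the labels or headers used here, so reads of overlapping or near-identical records can fall on either. Groups and replicate numbers came from the sample labels.

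The Zfp genes and the gene lists were chosen with earlier results of these data known. The 55401 records were tested by edgeR 4.0.16 (R 4.3.3), with filterByExpr keeping 27573, TMM factors and a robust quasi-likelihood F-test between 4 Nynrin CKO and 4 WT libraries. P-values were adjusted by Benjamini-Hochberg over all 27573 and the threshold was 0.05. The rule used CPM of unscaled totals, and levels by library are CPM with TMM factors. At the lowest, a library held 27 counts of a Zfp gene, and the median over genes of the lowest count was 868, so counting error is small beside the spread between libraries for most genes. Single genes were also compared by two-sided exact permutation of log2(CPM + 1) over 70 assignments.

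Named were the genes past the threshold, the 8 smallest p-values per direction, the 10 highest levels, the 5 widest ranges between libraries, the genes nearest the level limit and genes of the role lists. KRAB types came from the KEGG orthology column of the deposited table. A list of 33 KRAB genes written by hand held 17 of the 181, of which none was called (median log2 fold change -0.05). Longest transcripts, GC content and shared 31-base words came from GENCODE vM21 transcripts, and start-site windows from RefSeq (GRCm38.p6). Values within a library set come from a fit, added after seeing the data, that gives each combination of group and set its own mean. WT 4 is the single library of its combination, and its variation is taken to equal that of the rest.

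Alternatives were RLE, upper-quartile and total-count scaling, other low-count filters, DESeq2 1.42.0, limma-voom (limma 3.58.1) with quality weights, a fit without robust estimation, terms for replicate number, library set (drawn at 300 CPM of receptor reads) and Xist class (100 CPM), a length and GC spline with 5 degrees of freedom, sums of the similar Nynrin CKO libraries, and each library left out. The fit was tested on simulated data for 27573 genes drawn from the observed means, dispersions and totals of this comparison. Of 100 genes given a 4-fold change 69 were called, and of 100 given a 2-fold change 33, while 3 unchanged genes were called. The simulated libraries were independent, whereas Nynrin CKO 1 and 2 resemble each other, as do Nynrin CKO 3 and 4. The simulation therefore does not give the rate of false calls in these data.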

Additional observations from a re-analysis of the deposited data

Results flagged for a closer look

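Among 35 of the named Zfp genes, 5 of 70 groups had 1 library further from the others than Dixon's 95% limit for 4 values allows. Over all 181 genes this held for 18 of 362 groups, and chance gives about 1 in 20. Zfp422 had 203 CPM in Nynrin CKO 2, against 26.2 to 33.8 CPM in the other Nynrin CKO libraries. Zfp959 had 2.21 CPM in WT 3, against 19.7 to 22.2 CPM in the other WT libraries. Zfp521 had 92.8 CPM in WT 1, against 32.2 to 40.5 CPM in the other WT libraries. Zfp706 had 578 CPM and Zfp148 83.9 CPM in WT 4, against 482 to 488 CPM and 73.2 to 73.8 CPM in WT 1 to 3. WT 4 is the WT library with few receptor reads, and its part in the last pair of values was not tested.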

How the results depend on the processing

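The 6 called genes had the same direction under all 24 alternatives run, which groups that do not overlap fix for every choice of libraries, but their side of the threshold depended on the fit, and the cause was not tested. The 2 higher and 4 lower calls became 0 and 0 with RLE factors (17 and 28 at an unadjusted p under 0.05), without a low-count filter (17 and 20), with the Xist class as a term (19 and 25), with the length and GC trend removed (17 and 16) and with similar Nynrin CKO libraries summed (7 and 18, with fewer samples). Calls over all tested records fell likewise, with 611 higher and 162 lower becoming 13 and 22 with RLE factors, 33 and 16 without the filter, 4 and 6 with the Xist class, 2 and 1 with the trend removed and 0 and 0 with sums. Calls among the 181 genes became 0 and 9 with total counts (4 and 48 unadjusted), 1 and 5 with upper-quartile factors and 2 and 10 with a mean of at least 1 CPM. They were 7 and 16 with DESeq2, 8 and 9 with limma-voom, 5 and 7 with a library set term, and 6 and 11 with the libraries with more receptor reads only. Over all tested records these 7 settings gave, in the same order, 59 and 318, 225 and 251, 693 and 475, 1656 and 980, 1629 and 496, 1221 and 408, and 1311 and 857. In the receptor-rich set 17 and 17 were called, and in the receptor-poor set 10 and 30. Over all tested records the receptor-rich set gave 2168 and 1025. In the receptor-poor set, too, calls over all tested records outnumbered those of the comparison of all libraries in both directions. The receptor-poor counts rest on a single WT library, WT 4, so they are not read as a property of Zfp genes. Leaving out each library in turn gave 0 to 3 higher and 0 to 4 lower calls and medians of -0.112 (without WT 3) to 0.024 (without WT 4), with 3 and 4 calls without WT 4 and none without any other library.

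The median log2 fold change of -0.02 was -0.28 with total counts, -0.12 with upper-quartile factors, -0.12 with a mean of at least 1 CPM and -0.092 in the receptor-poor set. Scaling moved the median of all tested records likewise, which was -0.09 with TMM, -0.14 with RLE, -0.34 with total counts and -0.20 with upper-quartile factors. With a replicate block 0 higher and 0 lower genes were called (23 and 23 unadjusted), as over all tested records. Deviations of same-numbered libraries correlated at 0.22, 0.26, -0.36 and 0.46, and 4 of 8 libraries correlated best with their own number. Same-numbered libraries lie in the same library set except Nynrin CKO 3 and WT 3. These correlations thus cannot tell a pairing by number from the library sets.

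Among named genes that were not called, log2 fold changes reversed for 14. In the receptor-rich set, by the joint model and by the separate fit, these were Zfp36 (-0.55 and -0.56), Zfp266 (-0.68 and -0.68), Zfp868 (-0.026 and -0.034), Zfp687 (-0.13 and -0.14), Zfp715 (0.60 and 0.60), Zfp239 (0.13 and 0.13), Zfp62 (0.35 and 0.35), Zfp217 (-0.32 and -0.33) and Zfp281 (0.077 and 0.069). In the receptor-poor set they were Zfp106 (0.17) and Zfp521 (0.087). Total counts reversed Zfp207 (-0.12), Zfp266 (-0.080), Zfp687 (-0.20), Zfp143 (-0.079) and Zfp410 (-0.013). A library set term reversed Zfp36 (-0.21), Zfp266 (-0.21), Zfp687 (-0.037) and Zfp62 (0.19), and limma-voom Zfp36 (-0.092), Zfp266 (-0.15) and Zfp62 (0.32). Zfp687 was also -0.0081 with upper-quartile factors and -0.0036 with a mean of at least 1 CPM, Zfp106 0.24 with the length and GC trend removed and Zfp62 0.038 with the Xist class term. With 1 library left out, values ran from -0.16 to 0.058 for Zfp106, from -0.039 to 0.22 for Zfp687, from -0.89 to 0.044 for Zfp715, from -0.31 to 0.30 for Zfp62 and from -0.52 to 0.18 for Zfp521.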
